A study of Mus musculus with 7 samples.

Results

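The AP-1, Atf3 and Egr immediate early factors were examined in endothelial cells sorted from E18.5 mouse lungs. The array data comprised 3 samples with a wild-type label and 4 with a Sash1-knockout label. The 10 members were taken by gene symbol: Fos, Fosb, Fosl1, Fosl2, Jun, Junb, Jund, Atf3, Egr1 and Egr2. A member was read from a probe set annotated to that gene alone, the brightest over the 7 arrays where there were several. This gave 9 members among 22180 genes. Fosl1 was not analysed here, because the 1 probe set listing it also lists Ccdc85b. All 9 passed the filter on dim genes.

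The embryos were of C57BL/6 background and genotyped by PCR, the wild-type ones being littermates of the Sash1-/- knockouts. The labels name no promoter, Cre or tissue restriction of that mutation, nor the part of Sash1 it removes. Viable cells positive for CD31 and negative for CD45 and CD326 were sorted, snap-frozen, and their RNA (RIN above 7) was amplified, labelled with biotin and hybridised to Affymetrix arrays. Whether each sample was 1 embryo is not stated, so p-values reflect sample-to-sample spread that may be technical. Levels are RMA signals on the log2 scale, where a step of 1 is a doubling, and precision depends on how many arrays there are. Values are listed for wild-type-labelled replicates 1 to 3 and then for knockout-labelled replicates 1 to 4. In bulk samples, fewer cells of a type and less RNA per cell cannot be told apart.

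Immediate early genes are transcribed within minutes of a stimulus, without new protein synthesis, through factors already present in the cell. FOS and JUN family proteins pair through leucine zippers to form AP-1, which binds the sequence TGANTCA, while ATF3 is a related zipper protein of the stress response and EGR proteins bind DNA through zinc fingers. In endothelium these genes are known to answer to shear stress, growth factors and injury, and they are also known to be switched on by enzymatic dissociation and cell sorting.

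Upstream sequences are shown for 4 members that held, near a start site, motifs known to receive stress and growth signals. The order of arrays described below was shared by all 9 measured members, and Fosb, Fosl2 and Jund held none of the motifs searched. RefSeq start sites of GRCm38.p6 were available for 8 of the 10 members, in 12 windows. Each printed stretch is the 250 bases before the start site, read 5′ to 3′ on the strand of the gene, with matched motifs in capitals. Fos lies on the plus strand at chr12:85473640-85473889, Atf3 on the minus strand at chr1:191183334-191183583, Jun on the minus strand at chr4:95052223-95052472, and the Egr2 window on the plus strand at chr10:67537619-67537868.
Fos: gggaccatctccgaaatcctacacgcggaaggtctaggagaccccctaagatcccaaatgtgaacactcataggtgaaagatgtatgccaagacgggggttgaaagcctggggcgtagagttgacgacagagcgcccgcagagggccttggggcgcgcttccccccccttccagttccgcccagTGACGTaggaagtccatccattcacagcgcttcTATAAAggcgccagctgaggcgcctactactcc
Atf3: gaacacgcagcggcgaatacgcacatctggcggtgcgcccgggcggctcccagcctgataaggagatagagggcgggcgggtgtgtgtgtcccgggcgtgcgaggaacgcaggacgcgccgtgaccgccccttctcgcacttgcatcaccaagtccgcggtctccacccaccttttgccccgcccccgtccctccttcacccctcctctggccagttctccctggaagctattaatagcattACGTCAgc
Jun: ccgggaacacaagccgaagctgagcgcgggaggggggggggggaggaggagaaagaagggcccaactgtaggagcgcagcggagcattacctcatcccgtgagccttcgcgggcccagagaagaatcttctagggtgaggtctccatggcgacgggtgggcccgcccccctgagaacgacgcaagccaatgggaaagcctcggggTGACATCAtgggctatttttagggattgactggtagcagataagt
Egr2: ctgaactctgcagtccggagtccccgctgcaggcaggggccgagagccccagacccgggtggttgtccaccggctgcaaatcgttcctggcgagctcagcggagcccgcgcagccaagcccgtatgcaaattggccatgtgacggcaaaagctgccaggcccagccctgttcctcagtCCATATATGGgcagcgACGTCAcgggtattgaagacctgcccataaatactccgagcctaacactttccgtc

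The motifs were searched on both strands in windows running from 250 bases before to 50 bases after each start site. A member counted if any of its windows matched, and Egr2 had several, whereas the shares of all windows are per window. The letters TGACGT, the core of the cAMP response element, were found in Fos, Atf3 and Egr2 (3 members) and in 7.51% of all 32851 windows. In Fos they began 66 bases before the start site, in Atf3 8 bases and in Egr2 56 bases. A CArG box, the site of serum response factor, was found in windows of 1 of the 8 members, Egr2, and in 1.63% of all windows. Jun held TGACATCA, the AP-1-like element of its promoter, which was present in 3.62% of all windows. The consensus AP-1 letters TGANTCA were in none of the members' windows and in 7.81% of all windows. TATAAA, the letters of a TATA box, was found 33 bases before the start site of Fos and in 13.6% of all windows. In Junb the same letters lay at the start site itself. A match describes letters only, and an absent match says nothing of elements farther from the start.

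Sash1 itself did not separate the labels. It measured 9.02, 8.73 and 8.33 in wild-type-labelled cells and 8.29, 8.21, 8.68 and 8.13 in knockout-labelled cells. The library labelled wild-type 3 lay near the knockout-labelled values and the library labelled knockout 3 lay near wild-type 2. Its difference was -0.37 (SE 0.20, 95% confidence interval -0.83 to 0.10; limma adjusted p 0.971). A probe set outside the removed part would check nothing, so groups are named by their labels and every direction rests on them. The 3 highest arrays for Sash1 were wild-type 1, wild-type 2 and knockout 3, which were also the 3 highest for every member below.

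Among the FOS family, Fos, the founding AP-1 subunit, had the widest range. It measured 8.80, 8.62 and 5.86 in wild-type-labelled samples, and 7.72, 6.00, 9.10 and 4.39 in the knockout-labelled ones. Wild-type 3 was low beside its own group and knockout 3 was the highest array of all, so the labels overlapped throughout. Between the highest and lowest array of the same label, Fos spanned 7.67-fold among wild-type-labelled and 26.2-fold among knockout-labelled samples. The second span is set by the value of 4.39 on knockout 4, an array with a median over all probe sets of 3.95, so its exact size is uncertain. Its mean was 7.76 ± 1.65 (SD, n = 3) against 6.80 ± 2.05 (SD, n = 4), a difference of -0.96 (SE 1.21, 95% confidence interval -3.81 to 1.89; limma adjusted p 0.972).

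Fosb, a FOS protein with a strong transactivation domain, measured 6.59, 6.45 and 4.12 in wild-type-labelled samples and 5.40, 3.69, 6.79 and 3.70 in the knockout-labelled ones. Wild-type 3, knockout 2 and knockout 4 were the 3 low arrays, as for Fos. The values on knockout 2 and knockout 4 lay below the medians of those arrays over all probe sets, 3.86 and 3.95. The exact size of the Fosb difference and spread is therefore uncertain. The difference was -0.82 (SE 0.93, 95% confidence interval -3.01 to 1.36; limma adjusted p 0.971). Fosl2, which encodes FRA-2, a FOS protein that persists longer after a stimulus, measured 7.40, 7.47 and 6.24 against 6.56, 6.04, 6.79 and 6.23. Here knockout 3 stayed below wild-type 1 and 2, and the array labelled wild-type 3 still fell within the knockout-labelled range. Fosl2 had the smallest unadjusted p of the members, 0.0969, with a difference of -0.63 (SE 0.33, 95% confidence interval -1.41 to 0.15; limma adjusted p 0.971).

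Among the JUN family, Jun, which can bind DNA as a homodimer or with FOS, varied least. It measured 10.62, 10.41 and 9.92 in wild-type-labelled samples and 10.18, 10.06, 10.65 and 9.83 in the knockout-labelled ones, a span of 1.77-fold over all 7. Its difference was -0.14 (SE 0.23, 95% confidence interval -0.69 to 0.41; limma adjusted p 0.982), which puts the knockout-labelled level at 91% of the wild-type-labelled one, with an interval of 62.1% to 133%. Junb, a weaker activator that can restrain JUN, measured 8.05, 7.70 and 6.56 against 7.53, 6.58, 8.44 and 6.26. Knockout 3 was again above all wild-type-labelled arrays, and the Junb difference was -0.23 (SE 0.58, 95% confidence interval -1.61 to 1.14; limma adjusted p 0.989).

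Jund, the JUN protein that is usually present before stimulation, was read by a pair of probe sets. The brighter one measured 9.86, 9.35 and 7.52 in wild-type-labelled samples and 8.49, 8.03, 9.23 and 8.37 in the knockout-labelled ones. Jund was lowest on wild-type 3, as was Egr2, and knockout 4 was close to knockout 1. Its difference was -0.38 (SE 0.56, 95% confidence interval -1.70 to 0.94; limma adjusted p 0.972). The dimmer probe set of Jund measured 6.97, 6.84 and 5.74 against 6.41, 6.24, 6.94 and 6.38, with the same 3 arrays highest and wild-type 3 lowest, and a difference of -0.02.

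Atf3, the stress-induced zipper factor, measured 9.04, 8.96 and 6.58 in wild-type-labelled samples and 8.66, 6.22, 9.32 and 5.77 in the knockout-labelled ones. Knockout 1 lay close to the high arrays here, and the knockout-labelled samples spanned 11.7-fold. The difference was -0.70 (SE 1.04, 95% confidence interval -3.14 to 1.74; limma adjusted p 0.972).

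Of the EGR zinc finger factors, Egr1, a fast responder to shear and growth factors in vessels, measured 8.69, 8.16 and 6.31 against 7.79, 6.46, 9.40 and 6.06. Knockout 3 exceeded every wild-type-labelled array, and the span within knockout-labelled samples was 10.1-fold. Egr1 differed by -0.29 (SE 0.90, 95% confidence interval -2.41 to 1.83; limma adjusted p 0.993). Egr2, known as Krox20 for its part in hindbrain and Schwann cell development, measured 5.33, 4.97 and 4.09 against 4.75, 4.20, 5.72 and 4.35. Its means were 4.80 ± 0.64 (SD, n = 3) and 4.75 ± 0.68 (SD, n = 4), a difference of -0.04 (SE 0.43, 95% confidence interval -1.05 to 0.97; limma adjusted p 1) that turned to 0.01 with quantile normalization and 0.02 with median centring.

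**Figure D1:**
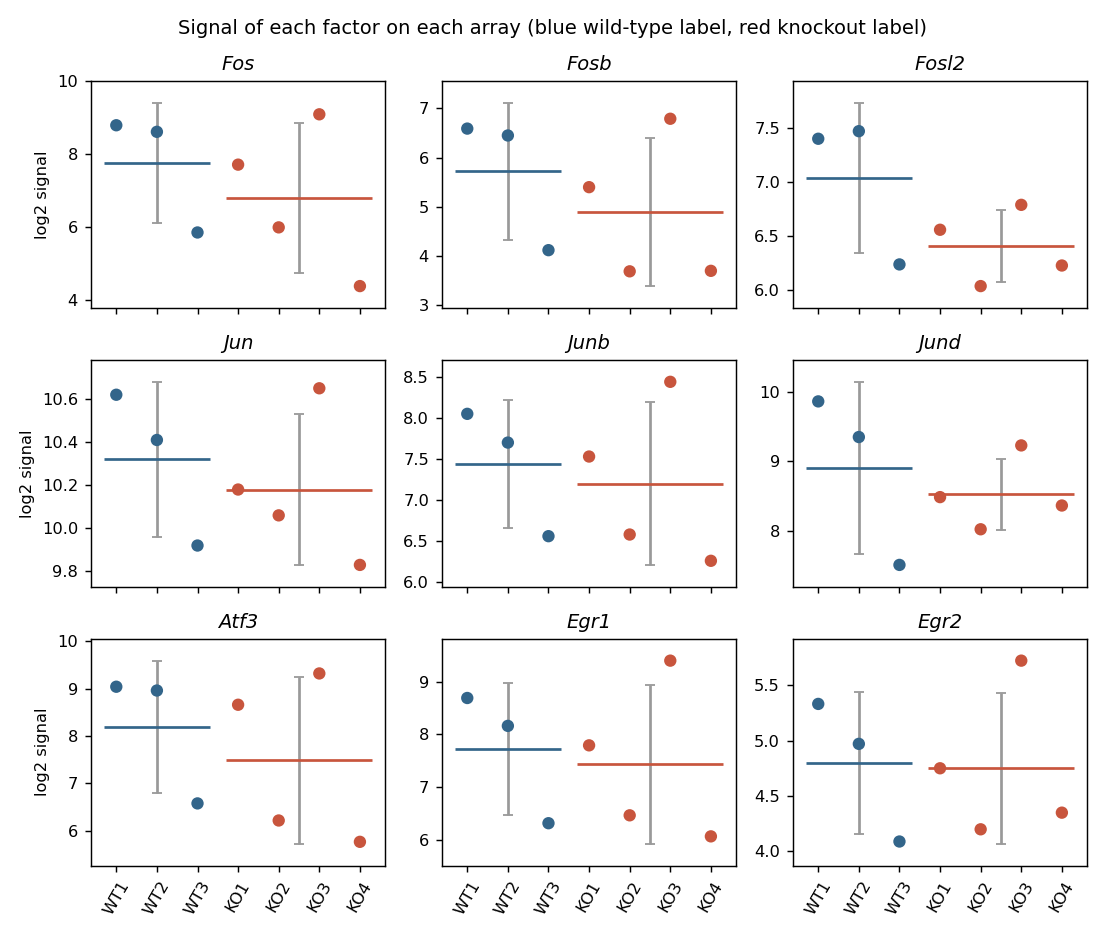
Log2 signal (y axes, separate scale per gene) of the 9 measured factors on each of the 7 arrays (x axes; WT and KO stand for the wild-type and knockout labels, with replicate numbers). Points are arrays, horizontal lines are label means and grey bars are 1 SD to either side. WT1, WT2 and KO3 are the 3 highest arrays in every panel.

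No member passed the test between labels. Of 16637 genes tested, limma called 0 at an adjusted p under 0.05, a share of 0%, and 0 of the 9 members. Without adjustment, 556 genes (3.34%) and 0 members had a p under 0.05. The labels did not overlap in 408 genes, or 2.45% of those tested, and overlapped in all 9 members. All 9 differences were below 0, against 45.6% of all genes tested, and their median was -0.38 against 0.02 for all genes tested. The 9 share nearly the same order of arrays, so their signs are not separate pieces of evidence.

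The intervals were wide for the members that varied most. For Fos the knockout-labelled level was 51.5% of the wild-type-labelled one, with a 95% confidence interval from 7.15% to 371%. Fosb and Atf3 had intervals of 12.4% to 257% and 11.3% to 334%, and Egr1 of 18.8% to 355%. Fosl2 was bounded more closely, at 37.6% to 111%. Differences of severalfold in either direction therefore lay within the error for Fos, Fosb, Atf3 and Egr1.

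Single arrays moved the differences and turned the sign of several. Without the array labelled wild-type 3, the differences were -1.91 for Fos, -1.62 for Fosb, -1.51 for Atf3, -1.07 for Jund, -1.03 for Fosl2, -0.67 for Junb, -0.40 for Egr2 and -0.34 for Jun, and that of Egr1 was close to the value for Fosl2. All members were negative there. Without wild-type 1, 5 members had positive differences, namely 0.22 for Egr2, 0.19 for Egr1, 0.09 for Jund, 0.07 for Junb and 0.01 for Jun. Without knockout 4, which held the lowest Fos value, Fos differed by -0.15 and Atf3 by -0.13, and Egr1 by 0.16, Egr2 by 0.09 and Junb by 0.08. Egr2 was also positive without wild-type 2 (0.05) and without knockout 2 (0.14), where Egr1 stood at 0.03. Without knockout 3 Fos differed by -1.72, and without knockout 1 by -1.26. No member passed in any of these fits. The smallest adjusted p of a member in any alternative was 0.254, for Fosl2 (-1.16) in the limma fit without wild-type 3 and knockout 3. Fos differed by -2.67 and Atf3 by -2.12 in that fit. That pair of arrays was chosen with results of these data known.

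**Figure D2:**
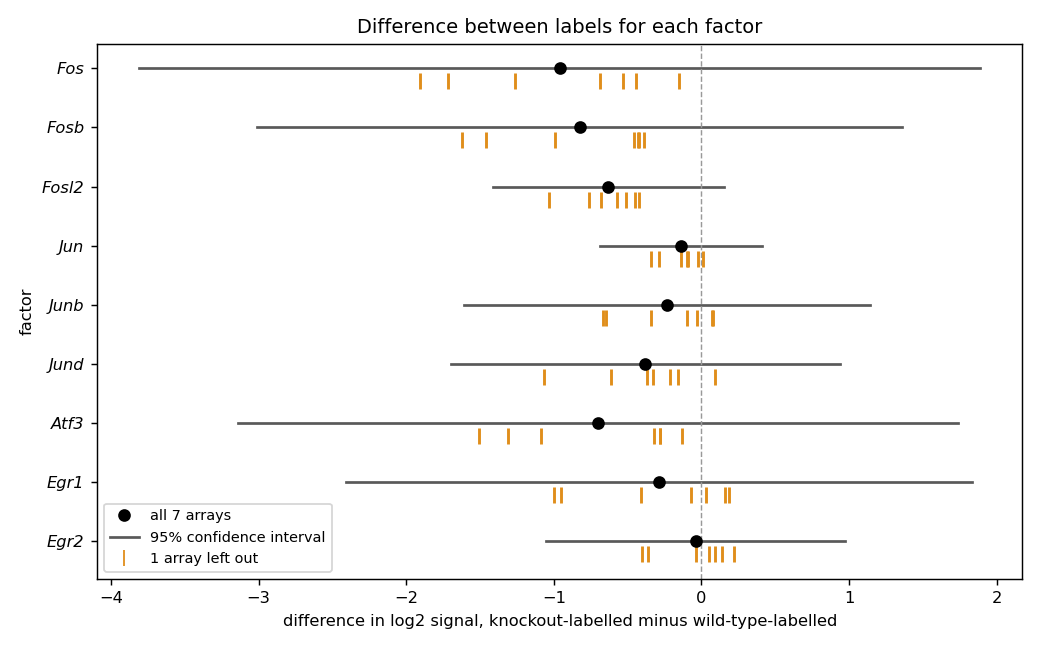
Difference in log2 signal, knockout-labelled minus wild-type-labelled (x axis), for each of the 9 factors (y axis). Dots use all 7 arrays with their 95% confidence intervals as lines, and orange ticks are the 7 fits that each leave out 1 array. All intervals include 0, and the ticks of Jun, Junb, Jund, Egr1 and Egr2 fall on both sides of it.

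The spread among arrays of the same label was large for these genes. The residual SD after fitting the label was 1.90 log2 units for Fos, 1.62 for Atf3, 1.45 for Fosb and 1.41 for Egr1, against a median of 0.20 over all genes tested. Of the 9 members, 8 lay above the 90th percentile of that SD over the genes tested and 6 above the 99th. Junb (0.91) and Jund (0.87) were among these 6, Egr2 (0.67) lay at percentile 98.0 and Fosl2 (0.51) at 94.9. Jun, with a residual SD of 0.35, lay at percentile 84.2.

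**Figure D3:**
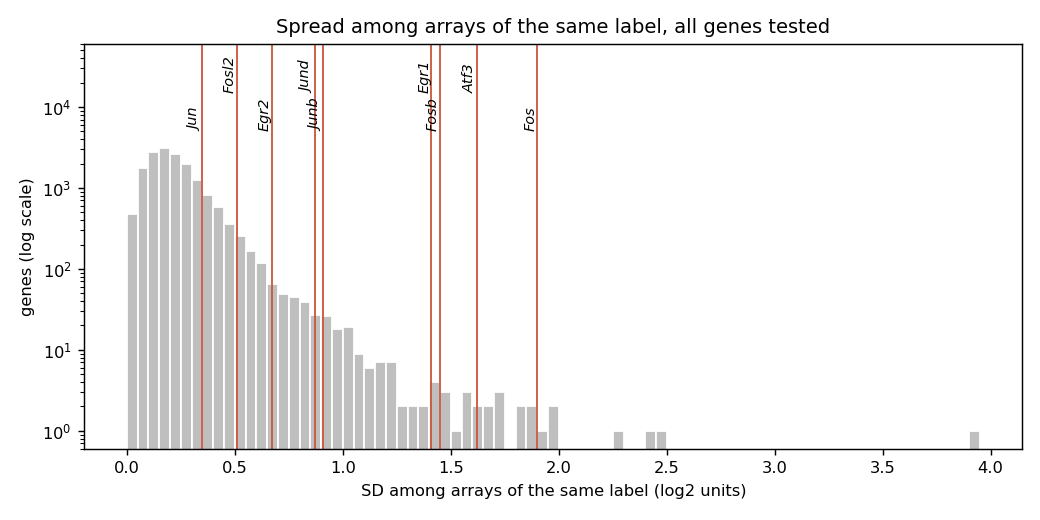
Number of genes (y axis, log scale) by the SD among arrays of the same label in log2 units (x axis), for all 16637 genes tested, with a line at each of the 9 factors. Fos stands at 1.90 and Jun at 0.35, against a median of 0.20.

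The order of the arrays was shared by the members. In all 9, wild-type 1, wild-type 2 and knockout 3 were the 3 highest arrays and knockout 1 came next, an order that was noticed after the values were seen. Over all genes tested, 965 (5.8%) had these 3 arrays highest and 253 (1.52%) also had knockout 1 next. Most of those genes varied less than the members, and no share among genes of like spread was computed. The arrays labelled wild-type 3, knockout 2 and knockout 4 made up the low end in every member, in differing order among themselves. The mean of the 9 members was 8.26, 8.01 and 6.36 in wild-type-labelled samples and 7.45, 6.36, 8.38 and 6.11 in the knockout-labelled ones. Wild-type 3 and knockout 2, of different labels, had close member means, at -0.92 and -0.91 from the mean over all arrays.

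Other immediate early genes ran with the members in part. The list held 40 further genes, of which 39 were tested, and was drawn up with earlier results of these data known. Of these, 35 had negative and 4 positive differences, with a median of -0.44, and 0 were called. The median was -0.84 without wild-type 3 and -0.67 without knockout 3, and -0.25 without wild-type 1 and -0.28 without wild-type 2. The 4 positive ones were the survival gene Ier3 (0.44), the growth arrest gene Gadd45b (0.39), the kinase gene Plk2 (0.21) and Ier2 (0.08), which were named after their values were seen. The list averaged 8.03, 8.01 and 6.93 in wild-type-labelled samples and 7.22, 6.98, 7.93 and 6.80 in the knockout-labelled ones. In 26 of 39 the 3 highest arrays were the same as for the members, and in 14 knockout 1 also came next.

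The list members of smallest unadjusted p were the orphan nuclear receptor genes Nr4a2 and Nr4a3, the small MAF gene Maff and the antiproliferative gene Btg1. Nr4a2 measured 6.74, 6.87 and 6.18 against 5.79, 6.08, 6.29 and 5.31, a difference of -0.73 (SE 0.27; limma adjusted p 0.971). As for Fosl2, its value on knockout 3 was below those on wild-type 1 and 2. Nr4a3 differed by -0.66 (SE 0.25), Maff by -0.76 (SE 0.35) and Btg1 by -0.44 (SE 0.20), all with an adjusted p of 0.971 in limma.

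Heat shock genes, which answer to unfolded protein and are also known to be induced by dissociation, had differences of both signs. Of 15 listed, 12 were tested, 8 with negative and 4 with positive differences, with a median of -0.06 and 0 called. The median was 0.03 without wild-type 1, 0.00 without knockout 4, -0.03 without wild-type 2 or knockout 2, -0.11 without knockout 3 and -0.22 without wild-type 3. The list averaged 7.84, 7.88 and 7.43 against 7.88, 7.43, 7.93 and 7.10. These means were higher on wild-type 1, wild-type 2, knockout 1 and knockout 3 than on the other arrays, as were those of the members. In single genes the members' 3 highest arrays were the highest in 2 of 12. Hspa1a, an inducible HSP70 gene named after its values were seen, measured 8.38, 8.58 and 7.08 against 9.26, 6.78, 8.86 and 4.32, so that knockout 1 was its highest array and knockout 4 by far its lowest. Its near-identical copy Hspa1b, named in the same way and with which signal may be shared, measured 8.61, 8.91 and 7.90 against 9.55, 7.44, 9.62 and 4.37. The 4 genes of smallest unadjusted p had small differences, Hsp90aa1 at -0.18 (SE 0.13), Hsph1 at 0.22 (SE 0.18), Hspd1 at 0.15 (SE 0.12) and Hspa5 at 0.09 (SE 0.08). Preparation stress was not measured on its own in these samples, and its part in the members' values was not tested.

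**Figure D4:**
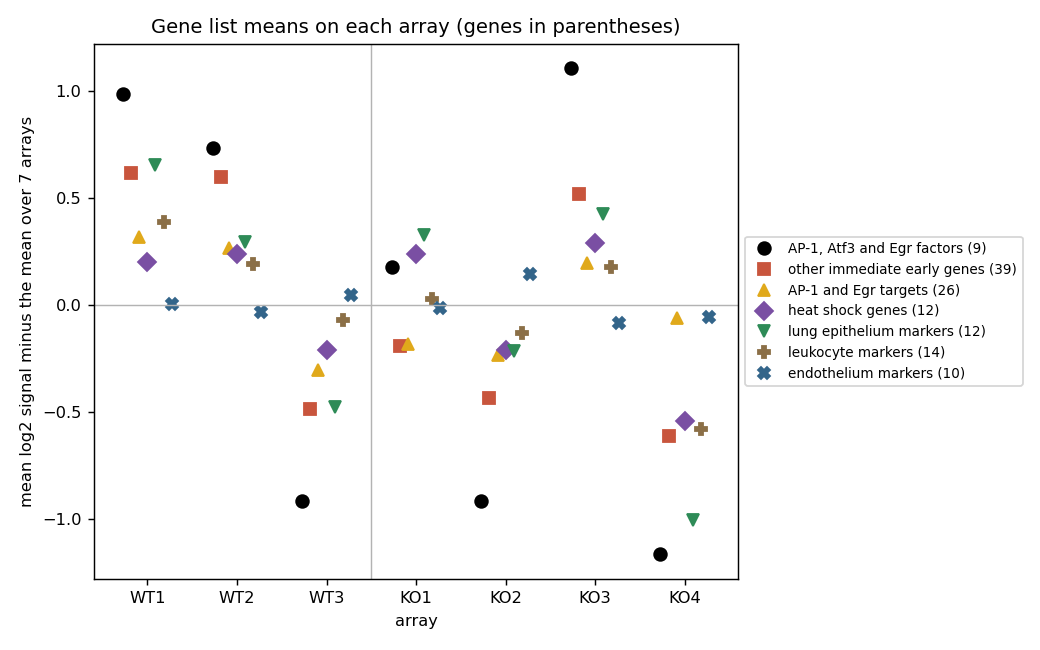
Mean log2 signal of each gene list minus its own mean over the 7 arrays (y axis), by array (x axis; WT and KO are the labels). The 9 factors range most widely, from 6.11 on KO4 to 8.38 on KO3 before centring, while the endothelium markers range from 10.06 to 10.29.

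Partners, regulators and upstream kinases of AP-1 and EGR were near a difference of 0 as a list. Of 33 listed, 29 were tested, 14 with negative and 15 with positive differences, with a median of 0.01 and 0 called. Their mean stayed between 6.62 and 6.74 on all 7 arrays, though single genes moved in opposite ways. Jdp2 had the array order of the members, at 7.68, 7.80 and 6.22 against 7.03, 6.58, 7.08 and 7.02. Atf7 was lowest on the members' 3 highest arrays, at 7.86, 7.66 and 8.55 against 8.65, 8.63, 7.88 and 8.13. Creb1 and Mrtfb were also lowest on those arrays. These genes were named after their values were seen. In 4 of 29 the 3 highest arrays were those of the members. Mafk, a small MAF protein gene with the array order of the members, measured 6.48, 6.54 and 5.73 against 5.76, 5.57, 5.94 and 5.57, a difference of -0.54 (SE 0.21; limma adjusted p 0.971). Elk3, an ETS partner of serum response factor, differed by 0.18 (SE 0.08) with no overlap between labels. It lay from 10.96 to 11.01 in wild-type-labelled samples and from 11.09 to 11.27 in the knockout-labelled ones. Of the 29 tested, 1 had no overlap, against 2.45% of all genes tested. The p38 kinase gene Mapk14 differed by 0.18 (SE 0.10) and the MEK1 gene Map2k1 by 0.27 (SE 0.15). Srf, the serum response factor gene, named after its values were seen, ranged only from 7.65 to 7.96 over the 7 arrays.

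Genes known as targets of AP-1 or EGR1 in other settings were mixed. Of 30 listed, 26 were tested, 18 with negative and 8 with positive differences, with a median of -0.12 and 0 called. Leaving out wild-type 1 put the median at 0.01, leaving out knockout 2 at 0.00, leaving out wild-type 2 at -0.04 and leaving out wild-type 3 at -0.23. In 10 of 26 the 3 highest arrays were those of the members. Tissue factor, F3, an EGR1 and AP-1 target named after its values were seen, measured 7.33, 7.11 and 4.60 against 6.00, 4.98, 6.66 and 5.09, with the same 3 highest arrays and knockout 1 next. Mmp14, a membrane metalloprotease gene, was higher on every knockout-labelled array, at 8.82, 8.80 and 8.91 against 9.09, 9.18, 9.21 and 9.30. It had no overlap between labels and a difference of 0.35 (SE 0.09), but did not pass (limma adjusted p 0.971). It was the only 1 of the 26 without overlap, against 2.45% of all genes tested. The chemokine gene Ccl2 differed by -1.06 (SE 0.57), the receptor tyrosine kinase inhibitor gene Spry4 by 0.34 (SE 0.19) and the hyaluronan receptor gene Cd44 by -0.26 (SE 0.15).

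The genes whose pattern was most like the mean of the 9 members were ranked by Pearson r over the 7 arrays. The 621 ranked were tested genes with an SD over the arrays of at least 0.5. Members, genes of the gene and marker lists, unnamed gene models and small RNA genes were left out. The 8 likest were Atp1b1, a sodium pump subunit gene (r 0.990), Ppp1r15a, which encodes the stress phosphatase subunit GADD34 (0.988), Sik1, a salt-inducible kinase gene (0.988), the transcription factor genes Tfcp2l1 (0.985) and Nfil3 (0.982), the signalling inhibitor gene Spry2 (0.964), Lypd2 (0.964) and the claudin gene Cldn4 (0.960). This is a description with no test, and 41 genes reached an r of 0.9. Of these 8, 7 were also among the 8 likest under quantile normalization and all 8 under median centring. Ppp1r15a measured 8.86, 8.11 and 6.78 against 7.74, 6.63, 8.88 and 6.29, and Sik1 9.55, 9.25 and 7.76 against 8.59, 7.83, 9.50 and 7.85.

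As list means, markers of the sorted cell type varied little over the arrays. Those of every other cell type listed varied more, whether or not the sort was set to exclude it. Their means ranged over 1.66 for epithelium, 1.24 for platelets, 0.97 for leukocytes and 0.96 for mesothelium. The range was 0.70 for fibroblast and mural markers and 0.39 for erythroid ones, against 0.23 for endothelium. Endothelium markers averaged 10.11 to 10.19 in wild-type-labelled samples and 10.06 to 10.29 in the knockout-labelled ones, and in 0 of 10 were the members' 3 highest arrays the highest. Pecam1, which encodes CD31, lay between 11.03 and 11.21 and Cdh5, VE-cadherin, between 11.83 and 11.97. Kdr, named after its values were seen, had the widest range of the 10, from 9.54 on knockout 3 to 10.37 on knockout 2. Lung epithelium markers averaged 8.32, 7.96 and 7.19 against 7.99, 7.45, 8.09 and 6.66, with 10 of 12 differences negative. Knockout 4 was lowest for these as for Fos, and wild-type 3 next. The members' 3 highest arrays were the highest in 2 of 12 epithelium markers, the E-cadherin gene Cdh1 and the keratin gene Krt8, named after their values were seen, and knockout 1 came next in both. Cdh1 measured 8.11, 8.01 and 6.92 against 7.47, 7.36, 8.03 and 6.88, and Krt8 7.52, 7.29 and 6.13 against 7.24, 6.18, 7.54 and 6.94. Epcam and Sftpc did not share that order, with Sftpc at 10.20 on knockout 4 and at 11.86 or above on the other 6 arrays.

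Leukocyte markers averaged 5.54, 5.34 and 5.08 against 5.18, 5.02, 5.33 and 4.57, with 13 of 14 differences negative. These means had the members' 3 highest arrays and knockout 1 next. Of the 14 markers, 5 had the same 3 highest arrays, namely Tyrobp, Cd14 and the complement genes C1qa, C1qb and C1qc, and in 2 of them, Tyrobp and C1qc, knockout 1 came next. The monocyte receptor gene Cd14 measured 5.86, 4.73 and 3.75 against 3.86, 3.53, 5.16 and 4.09. These 5 were named after their values were seen. C1qa (3.75 to 4.54) and C1qc (2.40 to 3.58) lay around or below the array medians of 3.86 to 4.03, as did Cd14 on its lowest arrays. Of the brighter markers, Tyrobp shared the order, while Lyz2 and Cd68, the latter named after its values were seen, did not. Ptprc, which encodes CD45, lay between 4.45 and 4.85 on every array but knockout 4 (3.51), and Lyz2 between 9.31 and 10.15 but at 7.22 there. Platelet markers also averaged highest on the members' 3 highest arrays, at 5.73, 5.32 and 4.77 against 5.08, 4.67, 5.59 and 4.49, with 5 of 5 differences negative and the members' 3 highest arrays in 3 of 5. Among them the platelet chemokine gene Ppbp measured 6.94, 6.05 and 4.80 against 5.93, 5.59, 6.73 and 4.97. Fibroblast and mural markers averaged 6.83 to 7.29 in wild-type-labelled samples and 6.72 to 7.43 in the knockout-labelled ones, with 3 of 12 differences negative. Mesothelium markers averaged 5.15 to 6.11 and 5.27 to 5.59, with 2 of 5 negative. Of the listed genes, Col1a1 lay between 6.33 and 6.95, Col1a2 between 9.61 and 10.59 and Msln between 6.52 and 7.99. Itga2b, a platelet integrin gene, lay between 4.12 and 4.32. Erythroid markers were read from 2 of 7 listed genes only, at 3.79 to 4.14 and 3.82 to 4.18, with Slc4a1 between 4.48 and 5.18. Some markers, such as Itgam (3.10 to 3.44) and Aif1 (2.87 to 3.23), named after their values were seen, lay below the array medians. Such a signal does not show that the cells were present. The part of other cells in the members' values was not tested.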

How the data were processed

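The authors deposited 1 log2 value per probe set and array, made by RMA in Affymetrix Expression Console 1.1 per the submitters' processing notes, and the values themselves fit a log2 scale. Array medians over 41345 probe sets were 3.86 to 4.03. Gene names came from GEO's annotation of the array, brought up to date with RefSeq (GRCm38.p6), in which 99.2% of identifiers were found. A lone gene symbol was listed for 23521 probe sets, several for 1814 and none for 16010. No build is named for the array annotation, and its coordinates are not used here. The brightest probe set stood for a gene, and the dimmest 25% of genes (5543, below 2.98) were left out, leaving 16637. The labels were compared with limma 3.58.1 (lmFit, eBayes, two-sided) in R 4.3.3, with Benjamini-Hochberg adjustment over all genes tested and a threshold of 0.05. The code was tested on simulated data. Members, lists and tests were chosen with earlier results of these data known.

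Named genes were the members, Sash1, the 4 tested genes of smallest unadjusted p in each list, the first and the brightest gene of each marker list, and the 8 genes of likest pattern. Other genes of the lists were named after their values were seen, as stated beside them. Alternatives covered the dim-gene filter, normalization, moderation, array weights, probe set choice, the replicate number as a block, the threshold and left-out arrays.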

Additional observations from a re-analysis of the deposited data

Results flagged for a closer look

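Among the 4 arrays labelled knockout, 58 sets of values were examined for a lone extreme array, and 5 had one. Chance gives about 1 in 20 for independent values, but these sets share arrays, so that rate is only a rough guide. None of the 9 factors had a lone extreme array. Ptprc on the array labelled knockout 4 stood at 3.51, against 4.57 to 4.72 on the other arrays of that label. Epcam on the same array was at 4.06, against 5.14 to 5.19. Sftpc there was at 10.20, against 11.86 or above. Map2k1 on the array labelled knockout 2 stood at 6.67, against 6.15 on the other 3. Itga2b on that array was at 4.12, against 4.30. For both genes the other 3 arrays were tied, so any different value on the remaining array would be flagged.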

How the results depend on the processing

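No gene and no member was called in any of 18 alternatives or at a threshold of 0.1. The count at an unadjusted p under 0.05, 556 with all arrays, was 1310 with array weights and 1779 without wild-type 3 and knockout 3, and 295 to 1314 leaving out 1 array, lowest without wild-type 2 and highest without wild-type 3. Of 153 recomputed member differences 16 turned sign. The dim-gene filter and moderation settings cannot change a difference, and the fixed block below repeats the fit without knockout 4. This count is therefore not a measure of how stable the signs are. Egr2 turned to 0.01 with quantile normalization and 0.02 with median centring. With the replicate number as a fixed block, which leaves out knockout 4 for lack of a partner, the unadjusted count was 225 and the differences of Junb, Egr1 and Egr2 were 0.08, 0.16 and 0.09, the same as without knockout 4; as a random block the count was 367. Same-numbered arrays deviated from their label means with correlations of -0.18, -0.20 and -0.55. No positive correlation was seen by replicate number. The wild-type embryos were littermates of the knockouts, but which samples shared a litter or a day of preparation is not labelled. It cannot be read from these values, the replicate number need not stand for it, and the main fit was unpaired. With 1 array left out the differences ranged from -1.0 to 0.19 for Egr1, -0.40 to 0.22 for Egr2, -0.34 to 0.01 for Jun, -0.67 to 0.08 for Junb and -1.07 to 0.09 for Jund. The members with negative differences numbered 4 to 9 and their median ranged from -1.03 to 0.01. The medians of the other lists with 1 array left out ranged from -0.84 to -0.25 for immediate early genes, -0.22 to 0.03 for heat shock genes, -0.23 to 0.01 for targets and -0.02 to 0.02 for partners. The median of AP-1 and Egr partners was 0.07 with median centring, and -0.08 without wild-type 3 and knockout 3, where that of the other immediate early genes was -1.04. The causes were not tested. Fos and Egr2 lay near the array median on their lowest arrays and Fosb near or below it, and the number of arrays limits the rest.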
